A study of Mus musculus with 10 samples.

Results

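Mitosis, spindle checkpoint and cytokinesis genes were followed in the synovium of arthritic mice given vehicle or maslinic acid. The 41 genes were chosen by name, for what their products do in cell division. Each was read from the probe set that named it alone, and from the one with the highest mean where several did. Ccnb1, which encodes cyclin B1, had no probe set that named it alone, so 40 members were measured among 18128 genes.

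All 10 mice were male DBA/1J mice of 8 weeks with collagen antibody-induced arthritis (CAIA), a model in which antibodies to joint cartilage and then bacterial lipopolysaccharide (LPS) inflame the joints. Every mouse, controls included, received an antibody to type II collagen (1 mg, day 8) and then LPS (25 µg, day 11), and left hind legs were collected at sacrifice on day 12. Vehicle mice (5) had corn oil by mouth, and maslinic acid mice (5) had this olive triterpene in corn oil, 200 mg/kg each day. The mice of each group were selected from larger groups, by a criterion that the design text does not give, and untreated mice were not analysed here, so no level without arthritis stands beside the values.

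Each mouse was read on 1 Affymetrix array, so that 5 arrays per group set the precision. The deposited values look like log2 levels, but they differ between arrays by very little, and the scale of a difference is unknown. Values are therefore given as steps of the last deposited decimal (0.000001) above the lowest of the 10 arrays, which can be compared within a gene only. Differences are given as Hedges' g, the maslinic acid mean minus the vehicle mean divided by the pooled SD, with a 95% interval in brackets. Of the 40 members, 37 held 10 distinct values over the 10 arrays. Among the arrays, vehicle replicate 3 and vehicle replicate 5 were unlike the others, with limma array weights of 0.4584 and 0.3389, where the others had 0.8573 to 2.012. The counts over all members, and the values these arrays change most, are given with and without them. The tissue is a mixture, in which fewer dividing cells and less of a transcript per cell cannot be told apart. Probe sets for markers of fibroblasts, skeletal muscle and marrow granulocyte progenitors reached mean levels of 13.00 (Dcn), 13.26 (Acta1) and 12.34 (Prtn3).

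As background, a cell enters mitosis when cyclin B switches on the kinase Cdk1, and the Polo and Aurora kinases then direct the building of the spindle. The kinetochore, a protein plate on each centromere, holds the chromosome to spindle microtubules. Kinetochores without microtubules keep the spindle checkpoint on, which holds back Cdc20 and the anaphase-promoting complex until every chromosome is attached. Motor and bundling proteins of the central spindle then guide the ring that divides the cell. Transcripts of these genes are made mostly in the G2 and M phases, so that in a tissue they mark dividing cells, and in an inflamed joint these can be lining cells, precursors of blood cells and others.

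Genes of this kind are known to share promoter letters that the choice of members did not use. These are CCAAT, the site of the factor NF-Y, and the cell cycle genes homology region (CHR), the site of the MuvB complexes, spelled TTTGAA or TTCGAA. RefSeq promoter windows of 300 bases (250 before to 50 after a start site, GRCm38.p6) were found for 33 of the 40 members. Those below were set by name to show where the motifs lie, Hmmr apart, which was added after its values were seen. Neither window of Cep55 held a CCAAT, and for it only the CHR letters with 10 bases on each side are shown. They are chr10:69352913-69353162 (Cdk1), chr9:70421555-70421804 (Ccnb2), chr2:127831860-127832109 (Bub1) and chr11:40733465-40733687 (Hmmr) on the minus strand and chr7:122159185-122159434 (Plk1) and chr19:38054998-38055023 (Cep55) on the plus strand. The letters run 5′ to 3′ on the strand of the gene and hold only bases before the start site, apart from the 26 bases of Cep55, which has a start site before and one after them. Capitals mark CCAAT and CHR letters on either strand (ATTGG and TTCAAA are their reverses).
Cdk1: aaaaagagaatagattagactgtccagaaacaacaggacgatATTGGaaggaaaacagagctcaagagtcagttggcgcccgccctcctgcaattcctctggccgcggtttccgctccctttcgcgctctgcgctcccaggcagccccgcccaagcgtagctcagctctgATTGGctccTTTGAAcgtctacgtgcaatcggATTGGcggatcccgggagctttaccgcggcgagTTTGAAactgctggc
Ccnb2: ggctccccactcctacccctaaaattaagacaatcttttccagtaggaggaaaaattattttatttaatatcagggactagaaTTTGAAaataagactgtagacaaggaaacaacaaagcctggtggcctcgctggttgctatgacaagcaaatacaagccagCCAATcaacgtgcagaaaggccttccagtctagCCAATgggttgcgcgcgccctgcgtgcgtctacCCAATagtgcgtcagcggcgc
Plk1: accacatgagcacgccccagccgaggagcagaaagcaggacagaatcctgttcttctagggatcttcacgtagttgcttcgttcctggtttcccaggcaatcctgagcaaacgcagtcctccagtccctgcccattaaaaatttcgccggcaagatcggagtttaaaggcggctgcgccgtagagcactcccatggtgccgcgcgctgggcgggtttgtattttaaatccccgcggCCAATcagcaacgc
Bub1: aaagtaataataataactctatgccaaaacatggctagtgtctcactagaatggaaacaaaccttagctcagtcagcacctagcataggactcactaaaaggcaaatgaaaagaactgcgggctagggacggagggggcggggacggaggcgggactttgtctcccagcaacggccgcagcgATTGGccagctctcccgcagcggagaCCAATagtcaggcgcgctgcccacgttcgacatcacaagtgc
Hmmr: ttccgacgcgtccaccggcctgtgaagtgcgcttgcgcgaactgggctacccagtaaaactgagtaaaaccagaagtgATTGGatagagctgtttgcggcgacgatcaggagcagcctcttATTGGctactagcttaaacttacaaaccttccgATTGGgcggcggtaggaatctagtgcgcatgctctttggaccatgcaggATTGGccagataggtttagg
Cep55: agccgcgggaTTCAAActcccggaag

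Cdk1 held CHR letters from 71 and 15 bases before its start and CCAAT from 208, 80 and 48 bases before it. Ccnb2 had 3 CCAAT, and the CHR letters near its start began 5 bases after it, beyond the bases shown. CHR letters also began after the start in Bub1 (15 bases), Hmmr (9 bases) and Plk1 (31 bases). The bases shown for Hmmr end before an outer start site, while its 9 bases count from the later start site of its window. A CCAAT from 20 bases before that later start is therefore not shown. Over the members, 26 of 33 genes (78.8%) held TTTGAA or TTCGAA on either strand, against 21.7% of all 27025 genes with such a window. With TTTAAA counted too, the shares were 84.8% and 31.9%. CCAAT was held by 24 of 33 members (72.7%) and by 41.1% of all genes, and both motifs by 66.7% and 8.61%. CHR letters began within 50 bases of a start site in 24 members (72.7%), against 6.12% of all genes. The E2F letters TTGGCGG or TTTGGCG or GCGGGAA, known from genes of DNA replication, were in 3 members (9.09%) and 8.97% of all genes. A match is a description of letters and not of a bound site, and 1 CHR match shared a base with a CCAAT.

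The main comparison asked how the genes of mitosis stood in treated joints. Mean values were lower with maslinic acid in 37 of 40 members, and higher in Bub3, Cdc20 and Plk1, by g of 0.26 or less. The median g of the members was −0.53, where that of all genes was 0.00 and that of the 6743 genes with 10 distinct values was 0.23. A lower mean was found in 50.1% of all genes and in 39.7% of those with 10 distinct values. No member passed the test across all 39993 probe sets (limma, Benjamini-Hochberg adjusted p from 0.418 to 1.0), and 0 probe sets of the table did, the lowest adjusted p being 0.148. At an unadjusted limma p under 0.05, 10 of 40 members (25.0%) were lower, where 4.54% of all genes were, and 0 were higher, where 4.29% of all genes were. The groups did not overlap in 4 members (10.0%), Cep55, Ndc80, Hmmr and Mad2l1, all lower with maslinic acid, where 0.734% of all genes had such a pattern. Among genes with 10 distinct values, 4.67% were lower at an unadjusted p under 0.05 and 1.17% were lower without overlap. The members were read on the same arrays and varied together, so their counts are not counts of independent events.

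**Figure D1:**
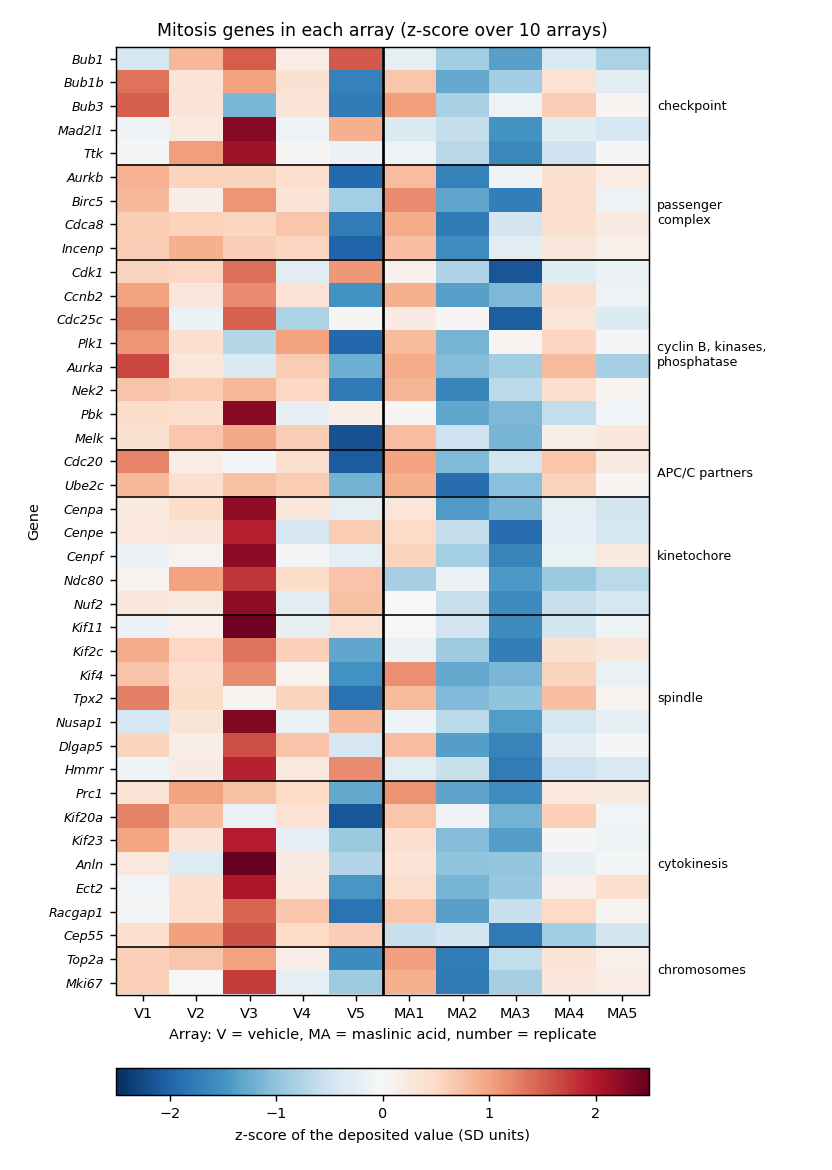
Value of each of 40 members (rows, by role) in each of 10 arrays (columns), as a z-score over the arrays in SD units, red high and blue low. Vehicle replicate 3 holds the highest value of 24 members, maslinic acid replicate 3 the lowest of 18, and vehicle replicate 5 the lowest of 15.

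The arrays were unlike within each group. The member score, the mean z-score over the 40 members, was 0.55, 0.43, 1.26, 0.24 and −0.74 in vehicle replicates 1 to 5. It was 0.47, −1.03, −1.16, 0.08 and −0.10 in maslinic acid replicates 1 to 5. One vehicle mouse thus lay below 3 of the treated mice, and 1 treated mouse lay above 3 of the vehicle mice. The means were 0.35 ± 0.72 (SD, n = 5) and −0.35 ± 0.72 (SD, n = 5), so that their difference of −0.70 was less than the SD within a group. Vehicle replicate 3 was the highest array in 24 of 40 members (60.0%), and in 20.9% of genes with 10 distinct values. Maslinic acid replicate 3 was the lowest in 18 members (45.0%, against 9.19%) and replicate 2 in 7 (17.5%, against 5.03%), and neither lay above the array median in any member. Maslinic acid replicate 1 lay above the array median in 34 of 40 members.

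Vehicle replicate 5 was the lowest array in 15 members (37.5%), and in 31.7% of genes with 10 distinct values. Without this array all 40 members had a lower mean with maslinic acid (50.7% of all genes), their median g was −1.01, and 8 were lower at an unadjusted limma p under 0.05 (20.0%, against 4.71% of all genes). Cdk1, Nuf2 and Mad2l1 were then just above 0.05 (unadjusted limma p 0.0512, 0.0535 and 0.0573), and Kif2c was under it (0.0275). Without vehicle replicates 3 and 5 the mean was again lower in 40 of 40 (51.9% of all genes), at a median g of −0.89, and 3 members, Cep55, Ndc80 and Bub1, were under 0.05 (7.5%, against 4.61%). Leaving out maslinic acid replicate 3 left 5 members under 0.05 (3.34% of all genes) and moved the median g to −0.33, and leaving out maslinic acid replicate 2 moved it to −0.30. Without vehicle replicate 3 alone there were 7 (3.97% of all genes). Scaling also mattered: quantile normalization left 2 members under 0.05 (4.98% of all genes) with 36 lower means (59.2% of all genes). Under it the g of Cdk1 was −0.13, of Ttk −0.19, of Bub1 −0.51, of Hmmr −0.63 and of Cep55 −1.08. Centring each array on its own median left 6 (0.778%) with 39 lower means (85.1%).

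Among genes of the spindle checkpoint, the sensor of unattached kinetochores, maslinic acid mice had lower means in 4 of 5 members (50.1% of all genes). Their median g was −1.31, and 3 were lower at an unadjusted p under 0.05 (4.54% of all genes). Bub1, the kinase that brings the checkpoint to the kinetochore, stood at 80, 191, 252, 135 and 254 steps in vehicle replicates 1 to 5 and at 100, 43, 0, 86 and 49 in maslinic acid replicates 1 to 5. Apart from vehicle replicate 1, every vehicle mouse lay above every treated mouse. Its mean was 182 ± 75.5 steps in vehicle and 55.6 ± 39.3 with maslinic acid (SD, n = 5 each), a g of −1.90 (−3.32 to −0.42), with a limma adjusted p of 0.474 and an exact permutation p of 0.0238.

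Mad2l1, the protein that binds Cdc20 while the checkpoint is on, stood at 801, 995, 2154, 776 and 1368 steps in vehicle and at 642, 514, 0, 675 and 604 with maslinic acid. The groups did not overlap, and vehicle replicate 3 was far above and maslinic acid replicate 3 far below the rest of its group. Its g was −1.46 (−2.76 to −0.11), with a limma adjusted p of 0.508 and an exact permutation p of 0.00794. This is the smallest that 252 assignments of arrays can give, and any gene whose groups do not overlap gets it. The exact permutation p given here are not adjusted for the number of members. Ttk, the kinase Mps1 at the head of the checkpoint, stood at 104, 178, 250, 110 and 98 steps in vehicle and at 99, 61, 0, 73 and 106 with maslinic acid. Here 2 treated mice reached the lowest vehicle mice, and the g was −1.31 (−2.57 to 0.00; limma adjusted p 0.546, exact permutation p 0.0397). Bub1b, the checkpoint protein BubR1, had a g of −0.49 (−1.62 to 0.67), which became −1.33 without vehicle replicate 5, its lowest array. Bub3, the partner of both Bub1 and Bub1b, had a g of 0.26 (−0.87 to 1.38).

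All 5 genes of the centromere and kinetochore had lower means (50.1% of all genes). Their median g was −1.30, and 3 were lower at an unadjusted p under 0.05 (4.54% of all genes). Ndc80, the subunit of the Ndc80 complex that grips the microtubule, stood at 86, 138, 182, 107 and 122 steps in vehicle and at 35, 73, 0, 29 and 43 with maslinic acid. Every treated mouse lay below every vehicle mouse. The means were 127 ± 36.2 and 36.0 ± 26.3 steps (SD, n = 5 each), a g of −2.60 (−4.24 to −0.89), with a limma adjusted p of 0.418 and an exact permutation p of 0.00794. Nuf2, its partner in the same complex, stood at 472, 457, 965, 331 and 586 steps in vehicle and at 402, 253, 0, 252 and 287 with maslinic acid. Only the highest treated mouse exceeded the lowest vehicle mouse. The g of Nuf2 was −1.46 (−2.75 to −0.10), with a limma adjusted p of 0.510 and an exact permutation p of 0.0159.

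Cenpa, the histone H3 variant that marks the centromere, stood at 357, 405, 785, 370 and 254 steps in vehicle and at 369, 0, 53, 255 and 206 with maslinic acid. The groups overlapped through maslinic acid replicates 1 and 4 and vehicle replicate 5. Its g was −1.30 (−2.55 to 0.01; limma adjusted p 0.549, exact permutation p 0.0476). Cenpe, a kinesin of the kinetochore, and Cenpf, a large protein of its outer layer, had g of −1.12 (−2.34 to 0.15) and −0.70 (−1.85 to 0.49). In both, vehicle replicate 3 was the highest array and maslinic acid replicate 3 the lowest.

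**Figure D2:**
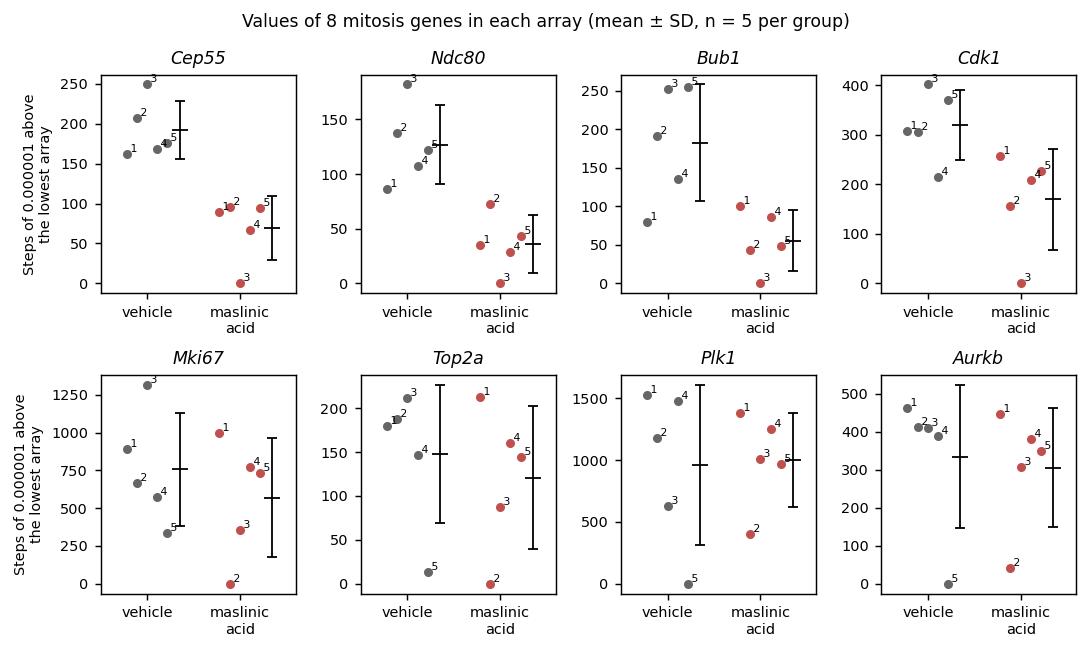
Values of Cep55, Ndc80, Bub1, Cdk1, Mki67, Top2a, Plk1 and Aurkb in each array, as steps of 0.000001 above the lowest array (vertical axis, own scale per gene), with points numbered by replicate and bars for mean ± SD (n = 5). The groups of Cep55 and Ndc80 do not overlap, whereas those of Plk1 and Aurkb share most of their range and have vehicle replicate 5 at 0.

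Of the 8 measured genes for cyclin B, mitotic kinases and their phosphatase, 7 had lower means (50.1% of all genes). The median g of the 8 was −0.41, and 2 were lower at an unadjusted p under 0.05 (4.54% of all genes). Cdk1, the kinase that drives mitosis, stood at 308, 305, 402, 216 and 370 steps in vehicle and at 257, 157, 0, 210 and 227 with maslinic acid. All treated mice lay below 4 of the 5 vehicle mice. The means were 320 ± 71.4 and 170 ± 102 steps (SD, n = 5 each), a g of −1.54 (−2.85 to −0.16), with a limma adjusted p of 0.496 and an exact permutation p of 0.0238. Pbk, a mitotic kinase also known as TOPK, stood at 244, 237, 498, 153 and 205 steps in vehicle and at 186, 0, 25, 95 and 173 with maslinic acid. The groups overlapped at vehicle replicate 4, below which only 3 treated mice lay. The g of Pbk was −1.39 (−2.66 to −0.05; limma adjusted p 0.525, exact permutation p 0.0317).

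Plk1, the Polo kinase that acts from mitotic entry to cytokinesis, gave another picture. It stood at 1528, 1178, 630, 1480 and 0 steps in vehicle and at 1379, 399, 1012, 1248 and 965 with maslinic acid. Vehicle mice were both the 2 highest and the lowest, and the groups overlapped throughout. The g of Plk1 was 0.06 (−1.06 to 1.18; limma adjusted p 0.987, exact permutation p 0.921). Its g was −0.46 without vehicle replicate 5 and −1.05 without vehicle replicates 3 and 5, so its direction depended on those arrays. Aurka, the Aurora kinase of the spindle poles, and Ccnb2, cyclin B2, had g of −0.36 (−1.49 to 0.78) and −0.46 (−1.59 to 0.69). Nek2, a kinase of centrosome separation, had −0.32, Melk, a kinase of dividing cells, −0.15, and Cdc25c, the phosphatase that activates Cdk1, −0.69. In Ccnb2, Plk1, Aurka, Nek2 and Melk the lowest array was vehicle replicate 5. Without it the g of Ccnb2 was −1.09, of Aurka −0.74, of Nek2 −1.03 and of Melk −1.11, and the median of these 8 genes was −1.06. The promoter windows of Cdk1, Ccnb2 and Plk1 all hold CHR letters and CCAAT, though the CHR letters of Plk1 lie beyond the bases shown. The g of these genes ran from −1.54 to 0.06.

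The 4 genes of the chromosomal passenger complex, whose products correct wrong attachments and guide cytokinesis, had lower means (50.1% of all genes). Their median g with maslinic acid was −0.23, and none was lower at an unadjusted p under 0.05 (4.54% of all genes). Aurkb, the kinase of the complex, stood at 463, 412, 410, 388 and 0 steps in vehicle and at 448, 42, 306, 382 and 350 with maslinic acid. Vehicle replicates 1 to 4 lay close together, above all treated mice but replicate 1, and vehicle replicate 5 was the lowest of all. The g was −0.15 (−1.27 to 0.98; limma adjusted p 0.943, exact permutation p 0.643), and −0.84 without vehicle replicate 5. Birc5 (survivin), Cdca8 (borealin) and Incenp, the scaffold, had g of −0.55, −0.24 and −0.23, and −0.84, −0.84 and −1.06 without that array.

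Among partners of the anaphase-promoting complex, Cdc20, the activator held back by the checkpoint, had a g of 0.10 (−1.02 to 1.22). Ube2c, the ubiquitin-conjugating enzyme that works with the complex, had one of −0.50 (−1.63 to 0.66). Without vehicle replicate 5 they were −0.46 and −0.93. The intervals of both are wide and allow a shift of over 1 SD in either direction for Cdc20.

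All 7 genes of spindle motors and microtubule proteins had lower means (50.1% of all genes). Their median g was −1.06, and 1 was lower at an unadjusted p under 0.05 (4.54% of all genes). Hmmr, a microtubule-binding protein of the spindle that is also a receptor for hyaluronan, stood at 240, 285, 534, 291 and 426 steps in vehicle and at 216, 172, 0, 179 and 200 with maslinic acid. The groups did not overlap, and maslinic acid replicate 3 was far below the other treated mice. Its g was −1.72 (−3.08 to −0.29), with a limma adjusted p of 0.488 and an exact permutation p of 0.00794. Nusap1, which bundles spindle microtubules, Kif11, the motor that pushes the poles apart, and Dlgap5, a spindle assembly factor, had g of −1.21 (−2.44 to 0.08), −1.06 (−2.26 to 0.20) and −1.07 (−2.27 to 0.19). Kif2c, a kinesin that takes microtubules apart, had −0.80, Kif4, a chromosome-bound kinesin, −0.31, and Tpx2, the activator of Aurora A, −0.16. Kif4 and Tpx2 were lowest in vehicle replicate 5, and without it had g of −0.81 and −0.79.

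The 7 genes of the central spindle and cytokinesis had lower means (50.1% of all genes). Their median g was −0.45, and 1 was lower at an unadjusted p under 0.05 (4.54% of all genes). Cep55, the midbody protein that brings in the machinery of the final cut between daughter cells, had the lowest p of all members. It stood at 162, 207, 249, 168 and 176 steps in vehicle and at 89, 96, 0, 67 and 95 with maslinic acid. All vehicle mice lay above all treated mice, and 4 of the treated mice were close together. The means were 192 ± 36.1 and 69.4 ± 40.5 steps (SD, n = 5 each), a g of −2.90 (−4.65 to −1.08), with a limma adjusted p of 0.418 and an exact permutation p of 0.00794. Its g was −2.65 without vehicle replicates 3 and 5. The CHR letters of Cep55 are those marked in the 26 bases printed above.

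The other genes of cytokinesis had smaller differences. Kif23, a motor of the centralspindlin complex, and Racgap1, its partner, had g of −0.81 (−1.98 to 0.40) and −0.23 (−1.35 to 0.90). Anln, the ring protein anillin, had −0.69, Prc1, the bundler of the central spindle, −0.45, Ect2, the activator of RhoA, −0.41, and Kif20a, a motor of the central spindle, −0.02. Kif20a, Ect2 and Racgap1 were lowest in vehicle replicate 5, and had g of −0.72, −0.94 and −0.91 without it.

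Among chromosome proteins of dividing cells, Mki67, which coats mitotic chromosomes and is the usual mark of proliferation, stood at 889, 666, 1317, 575 and 334 steps in vehicle and at 995, 0, 355, 771 and 730 with maslinic acid. The groups overlapped widely, with treated mice at the second and at the lowest place. The g of Mki67 was −0.44 (−1.57 to 0.71; limma adjusted p 0.817, exact permutation p 0.46). Top2a, the topoisomerase that untangles chromosomes, stood at 180, 188, 211, 147 and 13 steps in vehicle and at 213, 0, 87, 160 and 144 with maslinic acid. Its highest array was a treated mouse, and the g was −0.31 (−1.43 to 0.83; limma adjusted p 0.879, exact permutation p 0.603). The differences of these 2 proliferation marks were within the spread between mice, and their intervals include a drop of over 1 SD. Without vehicle replicate 5 the g was −0.70 for Mki67 and −0.85 for Top2a, and the mean z-score of all 3 probe sets of Top2a gave −1.24.

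**Figure D3:**
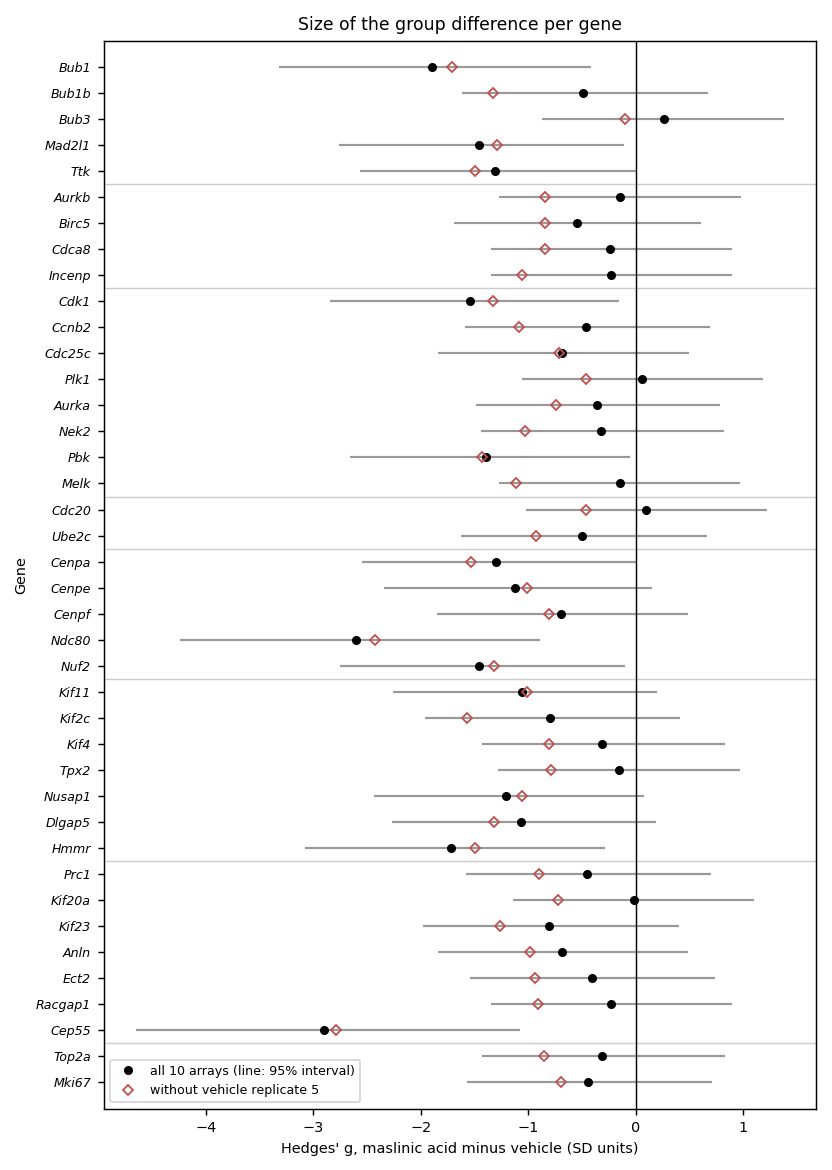
Hedges' g, maslinic acid minus vehicle in SD units (horizontal axis), for 40 members by role, as black points with 95% intervals for all 10 arrays and red diamonds without vehicle replicate 5. With all arrays 37 points lie below 0, and without that array all 40 diamonds do.

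The members fell into sets by the array that was lowest in them, a split made after seeing the values and not tested. Vehicle replicate 5 was the lowest array in 15 members, among them Plk1, Aurka, Aurkb, Ccnb2, Cdc20 and Bub1b, and not in the 25 others. A vehicle array at the lowest place limits how far below vehicle the treated mean can lie, so that the median g of −0.23 in the 15 and −1.07 in the 25 follows in part from the split itself. Without vehicle replicate 5 the medians were −0.84 and −1.26. Promoter letters of the members under an unadjusted p of 0.05 can be set beside those of the others: CHR letters were in 7 of 9 that have a window and in 19 of 24 others, and CCAAT in 5 of 9 and in 19 of 24.

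Where a member had further probe sets, these gave a second reading of the same RNA. Of 48 such probe sets, in 26 members, 44 had a g below 0 with maslinic acid, 2 had one above 0 and 2 had one of 0.00 at 2 decimals, and 12 (25.0%) were lower at an unadjusted limma p under 0.05, against 5.28% of all probe sets. The groups overlapped in the other probe sets of Hmmr (g of −1.26, −1.24, −2.06 and −0.66), and Ndc80 and Mad2l1 had no others. The second probe set of Cep55 gave a g of −2.09, and its groups overlapped too. That of Cenpe gave −2.11 where the main one gave −1.12, and the others of Kif11 gave −1.54 and −2.06 where the main one gave −1.06. The other probe set of Bub1, which held 6 distinct values, gave 0.19 where the main one gave −1.90. The mean z-score over both gave −0.80. Some of the 12 lower at a p under 0.05 were coarse too, so that count rests in part on such readings. Distinct values were 6 for Kif23 (g of −2.64), 7 for Kif2c (−1.49), 8 for Cdc25c (−1.5) and Ttk (−1.63), and 9 for Cenpa (−1.52). The other probe sets of Cep55, Cenpe and Kif11 held a distinct value in every array. The probe sets of Bub3 disagreed, with g of 0.26, 0.74, −1.62, −1.05 and −0.65, so that its direction is not settled.

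Further genes of mitosis, from a list of 62 made by function with earlier results of these data known, showed a like picture. They were read on the same arrays as the members, so they are no independent test. Of 61 measured, 54 had a lower mean, the median g was −0.72, and 10 (16.4%, against 4.54% of all genes) were lower and 0 higher (4.29% of all genes) at an unadjusted limma p under 0.05, with 0 at an adjusted p under 0.05. The lowest p were those of Cenph and Cenpi, proteins of the inner kinetochore, with g of −1.85 (−3.25 to −0.39) and −1.81 (−3.19 to −0.36). Of 33 genes of G1 entry and DNA replication, which come before mitosis in the cycle, 18 had a lower mean at a median g of −0.03, and 4 (12.1%) were lower at a p under 0.05. Among these, Gins2 of the replicative helicase had a g of −2.15 and Pcna, the clamp of DNA polymerase, −1.93. Without vehicle replicate 5, 30 of the 33 had a lower mean and their median g was −0.50. The difference between the lists was not tested.

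Regulators of these genes were read from lists of their own. Of 17 factors that control mitotic genes, 11 had a lower mean, at a median g of −0.17 (−0.62 without vehicle replicate 5), and 1 was under an unadjusted limma p of 0.05, a share of 5.88% near the 4.54% of all genes. This was Tfdp1, the partner of E2F factors, whose groups did not overlap, at a g of −2.07 (−3.54 to −0.54; limma adjusted p 0.465). Nfyb, a subunit of the CCAAT-binding factor, had −1.04, and Foxm1, the activator of G2 and M genes, had −1.02 (−2.22 to 0.23). Of 18 genes that slow the cycle, 11 had a higher mean, at a median g of 0.18, and 3 were higher at a p under 0.05 (4.29% of all genes). Without vehicle replicate 5, 2 were higher (3.24% of all genes) and 1 was lower (4.71%). Foxo1, a factor of quiescent cells, had a g of 2.02 (0.50 to 3.47; limma adjusted p 0.467), and Cdkn1a, the Cdk inhibitor p21, one of 1.49 (0.13 to 2.79; limma adjusted p 0.505). The unadjusted limma p of Cdkn1a was 0.0532 without vehicle replicate 5.

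**Figure D4:**
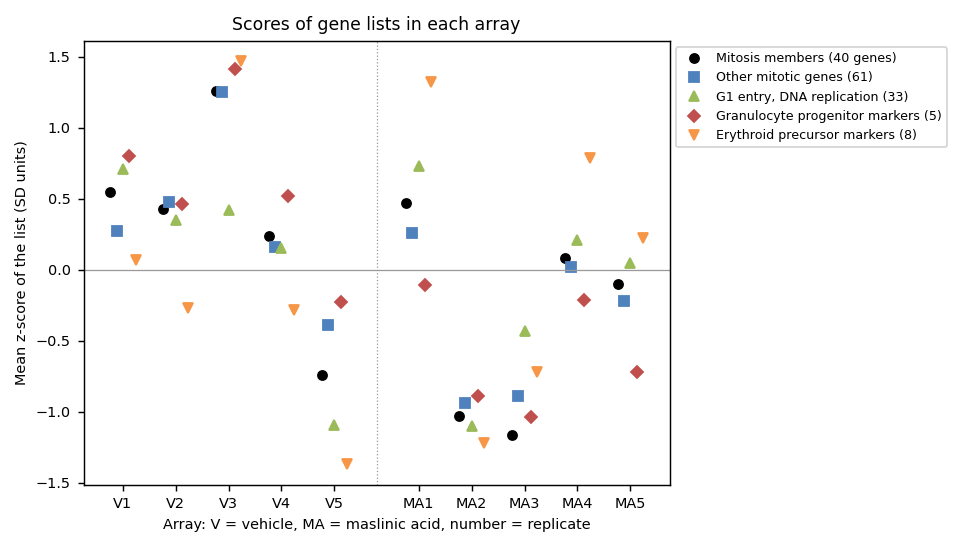
Mean z-score (SD units, vertical axis) in each of 10 arrays for the 40 members, 61 other mitotic genes, 33 genes of G1 entry and DNA replication, 5 granulocyte progenitor markers and 8 erythroid precursor markers. The scores of the 40 members and of the granulocyte progenitor markers are highest in vehicle replicate 3 and lowest in maslinic acid replicate 3, and that of the other mitotic genes is lowest in maslinic acid replicate 2.

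Markers of other cells that the tissue could hold were read beside the members. All 5 markers of marrow granulocyte progenitors, cells that divide, had a lower mean with maslinic acid, at a median g of −1.66, and 3 were under an unadjusted limma p of 0.05 (4.54% of all genes). Without vehicle replicate 5 the median was −2.55 and 4 were under it. Their score ran from −0.23 to 1.41 in vehicle and from −1.04 to −0.11 with maslinic acid, and their mean levels were 11.04 to 12.34. Ms4a3 had a g of −2.58 (−4.21 to −0.87) and Ctsg, a granule protease, −2.28 (−3.82 to −0.68). Neutrophil markers were lower in 8 of 9, at a median g of −0.57 (−1.11 without vehicle replicate 5) and scores of −0.07 to 1.12 against −0.53 to −0.02. T cell markers were lower in 4 of 5, at a median g of −0.88. Their mean levels were low, from 6.48 to 7.18, where the median of all genes was 7.15.

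Markers of erythroid precursors, which also divide, were higher in 6 of 8 at a median g of 0.14, but lower in 7 of 8 at −0.14 without vehicle replicate 5. Their scores ran from −1.37 to 1.47 in vehicle and from −1.22 to 1.32 with maslinic acid. Without vehicle replicates 3 and 5, 0 of these 8 markers were lower, at a median g of 0.23. Those of B cell precursors were higher in 4 of 7 (median g 0.10), and those of monocytes and macrophages in 5 of 8 (0.31), and without vehicle replicates 3 and 5 these medians were −0.02 and −0.13. Markers of tissue cells had higher means in 8 of 8 for fibroblasts (0.75), 5 of 6 for endothelium (0.26), 9 of 9 for skeletal muscle (0.50), 7 of 7 for cartilage (0.49), 4 of 4 for adipocytes (0.87) and 6 of 6 for osteoclasts (1.02). Without vehicle replicates 3 and 5 the medians were 0.55, −0.19, 0.65, 0.20, 0.74 and 0.54 in that order. Some markers had low mean levels, such as Calcr of the osteoclast list (5.99), and whether each was detected was not tested. No marker passed the limma test at an adjusted p of 0.05. The part of these cell types in the lower values of the mitosis genes was not tested.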

How the data were processed

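Biotin-labelled cRNA from 100 ng of synovial RNA was read on Affymetrix 3′ arrays, 1 per mouse. The values are scores: as deposited by the authors, with background correction, normalization and summary steps that were not given in the sources used here; R 3.2.1 was used per the submitters' processing notes. Log2 values had been foreseen, but the scale of a difference could not be settled, so the tests ran on the scores as they stand. The platform annotation named 1 gene for 34202 of 39993 probe sets. Group and replicate come from the sample titles, which number 5 biological replicates per group. Deviations of same-numbered arrays from their group means had correlations of mixed sign, from -0.329 to 0.342, with 0.259 in replicate 1 and 0.342 in replicate 4. Arrays of unlike number were not compared, so a shared origin of same-numbered arrays was not tested. The labels give no batch.

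The two-sided limma 3.58.1 fit (lmFit, eBayes; R 4.3.3), with no covariate, ran over all probe sets with Benjamini-Hochberg adjustment. Exact permutation tests, two-sided, used all 252 assignments, and their p were not adjusted. Other steps used Python 3.11.15, numpy 2.4.6, pandas 2.3.3, scipy 1.17.1 and matplotlib 3.10.9. Scripts were tested on simulated data. The members and lists were chosen with earlier results of these data known. Values in every array are given for members under an unadjusted p of 0.05 and for Mki67, Top2a, Cdk1, Plk1, Aurkb, Bub1 and Cep55; of other lists the 2 genes of lowest p could be named, and in marker lists also the gene with the highest mean. Foxm1, and members outside this rule, were named after their values were seen. Counts without vehicle replicate 5 were added after seeing the data.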

Additional observations from a re-analysis of the deposited data

Results flagged for a closer look

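In 46 groups of 5 values examined (members with values in every array, the member score and the role scores, in each treatment group), 8 had a single array far from the others, judged by the share of the group's range that the gap to its nearest neighbour takes. Chance flags about 1 in 20 groups, and groups that share arrays are not independent. Maslinic acid replicate 3 was far below its group in Hmmr (0.796) and Mad2l1 (0.761). Vehicle replicate 3 was far above its group in Pbk (0.736), in Cenpa (0.716) and in the centromere and kinetochore score (0.803). Vehicle replicate 5 was far below its group in Aurkb (0.838), in the chromosomal passenger complex score (0.899) and in the score of the partners of the anaphase-promoting complex (0.735).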

How the results depend on the processing

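The 10 members lower at an unadjusted limma p under 0.05 became 2 with quantile normalization (4.98% of all genes). They became 6 with each array centred on its own median (0.778% of all genes) and 3 without vehicle replicates 3 and 5 (4.61%). At a threshold of 0.01 there were 3, for which the share of all genes was not counted. With the replicate number as a block, which the labels do not tie to a shared origin, there were 3 (3.64% of all genes). With 1 array left out at a time the count ran from 5 (without maslinic acid replicate 3, 3.34% of all genes) to 12. The 12 came without maslinic acid replicate 1, where the share of all genes was not counted. The median g of −0.53 became −0.89 without vehicle replicates 3 and 5 and ran from −1.01 (without vehicle replicate 5) to −0.30 with 1 array left out. Members with a lower mean, 37 of 40, ran from 31 to 40 with 1 array left out, and the difference of the member score, −0.70, from −1.03 to −0.52. No setting gave a member an adjusted p under 0.05. A lower mean was held by 59.2% of all genes with quantile normalization and by 85.1% with centring on array medians, so the direction of a member in these is read against that share.

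Of 280 alternative values of g of single members, 270 kept the direction. Some of the 280 repeat the main value by construction, so the 270 overstate how far the direction was tested. A filter on mean level, another form of eBayes and a fit with 1 probe set per gene cannot change g. Choosing probe sets by their count of distinct values also left it unchanged in these members. Elsewhere the size often differed, as with quantile normalization for Cdk1 (−1.54 to −0.13), Ttk (−1.31 to −0.19), Bub1 (−1.90 to −0.51), Hmmr (−1.72 to −0.63) and Cep55 (−2.90 to −1.08). Plk1 had −0.13 with quantile normalization, −0.30 with array weights and −1.05 without vehicle replicates 3 and 5, and ran from −0.46 to 0.33 with 1 array left out. So did Aurkb from −0.84 to 0.22 and Top2a from −0.85 to 0.04. The cause of these shifts was not tested. With 5 arrays per group the intervals of g span over 2 SD, and rounding of the deposited values adds error in genes of small spread.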
